A study of Mus musculus with 12 samples.

Results

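Scgb3a1, a secretoglobin that the study proposes as a factor of the endothelial niche in lung metastasis, was followed beside 5 transcripts of the airway epithelium in endothelial cells (ECs) sorted from mouse lungs. The 6 genes are Scgb3a1, Scgb3a2, Scgb1a1, Cyp2f2, Foxj1 and Epcam, of 18193 genes with a probe set that carries 1 gene symbol. They form a list of named genes, and each was read from its probe set of highest mean over the 12 arrays. The question was whether Scgb3a1 moved with or against the airway transcripts. Scgb3a1 already stood among the highest rises at week 3 in earlier results of these data, so its own test is not independent support.

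NSG mice, which lack mature lymphocytes, were 6 to 8 weeks old when MDA-MB-231-LM2 cells, a human breast cancer line that colonizes lung, were injected into the tail vein. Lungs were taken at week 1, 2 or 3 after injection, and lungs of age-matched NSG mice that received no cancer cells served as the healthy group. ECs were sorted as CD31+ cells negative for CD45, CD11b, EpCAM, CD140a, CD140b and GFP, the label of the cancer cells. Each of the 4 groups had 3 biological replicates with 1 Affymetrix mouse array each, labelled from 500 pg of total RNA, and the small number of arrays limits the precision. Signals are log2 values normalized over the arrays, so a difference of 1 is a doubling. They ran between 5.27 and 13.99 over all probe sets, and signals of different probe sets were not set against each other.

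Secretoglobins are small secreted proteins of mucosal surfaces. In the mouse lung, Scgb1a1 (CC10) and Scgb3a2 are products of club cells, the secretory cells of the bronchioles, and Cyp2f2 is a cytochrome P450 of the same cells. Foxj1 is the transcription factor that drives the program of motile cilia in ciliated cells, and Epcam encodes the epithelial adhesion molecule used here to discard epithelial cells. Scgb3a1 belongs to the same family as Scgb3a2 and is made in the upper airways. In a bulk sample, fewer cells of a type and less RNA per cell cannot be told apart.

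The regions before the start sites of Scgb3a1 and Cyp2f2, the pair of members that passed the test at week 3 in opposite directions, are shown first because both hold the letters of 1 factor of lung epithelium. The sequences are from RefSeq (GRCm38.p6), which gave a window for 3 of the 6 members, and cover 250 bases before the start site on the + strand, at chr11:49663345-49663594 for Scgb3a1 and at chr7:27119705-27119954 for Cyp2f2. Capitals mark CAAGTG or its reverse complement, letters that NKX2-1, a transcription factor of lung epithelium, can bind.
Scgb3a1: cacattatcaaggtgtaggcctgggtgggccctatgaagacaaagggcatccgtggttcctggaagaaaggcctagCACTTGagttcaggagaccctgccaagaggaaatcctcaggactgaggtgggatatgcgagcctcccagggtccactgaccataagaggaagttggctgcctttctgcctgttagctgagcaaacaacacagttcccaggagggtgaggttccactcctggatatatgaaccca
Cyp2f2: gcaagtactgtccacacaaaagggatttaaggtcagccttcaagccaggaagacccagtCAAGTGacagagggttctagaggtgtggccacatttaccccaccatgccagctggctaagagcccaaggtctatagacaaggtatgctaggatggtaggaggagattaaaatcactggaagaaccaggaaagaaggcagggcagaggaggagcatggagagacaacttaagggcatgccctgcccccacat
The match began 174 bases before the start site in Scgb3a1, on the other strand, and 191 bases before it in Cyp2f2, on the given strand. The letters were searched on both strands, and 11.6% of 32851 mouse windows of the same 250 bases hold them. Of 4 further motifs searched on both strands, the ETS letters AGGAAGT were found 88 bases before the start of Scgb3a1 (7.69% of windows hold them) and not in Cyp2f2. The FOX letters TGTTTAC (3.17% of windows), the C/EBP letters TTGCNNAA (9.56%) and the TATA letters TATAAA (12.4%) were not found in these 2 windows. The window of Epcam held none of the 5 motifs. The motifs were chosen after the windows had been read, and a match describes the letters only.

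Scgb3a1 was the only member with a mean above healthy at every week, and the step to week 3 was the largest. Its log2 signal was 8.59, 9.01 and 8.38 in the 3 healthy replicates, 8.56, 9.56 and 9.40 at week 1, 9.65, 9.99 and 9.55 at week 2, and 11.70, 11.02 and 11.25 at week 3. Week 1 overlapped healthy, week 2 lay above every healthy array and overlapped week 1, and week 3 lay above all other arrays. At week 3 Scgb3a1 averaged 11.33 ± 0.35, against 8.66 ± 0.32 in healthy ECs (SD, n = 3 each), a log2 fold change of 2.67 (SE 0.22, limma adjusted p = 0.0026). This is 6.35-fold (95% CI 4.42 to 9.12) and ranked 3 among the rises of 18193 genes. The week 2 change of 1.07 (SE 0.19, adjusted p = 0.116) and the week 1 change of 0.51 (SE 0.28, adjusted p = 0.648) did not pass the limma test, although week 2 ranked 23 of all genes. Between weeks, week 3 was above week 2 by 1.59 (SE 0.20, limma adjusted p = 0.0224) and above week 1 by 2.15 (SE 0.29, limma adjusted p = 0.0302). Week 2 was above week 1 by 0.56, which did not pass (limma adjusted p = 0.722). The step over week 2 stayed past the threshold in 1 of 6 fits that left out an array and the step over week 1 in none of 6, while the rise over healthy stayed past it in all 6. With the replicate number as a block, neither step passed (limma adjusted p = 0.0917 and 0.124), although replicate numbers did not pair the arrays.

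**Figure D1:**
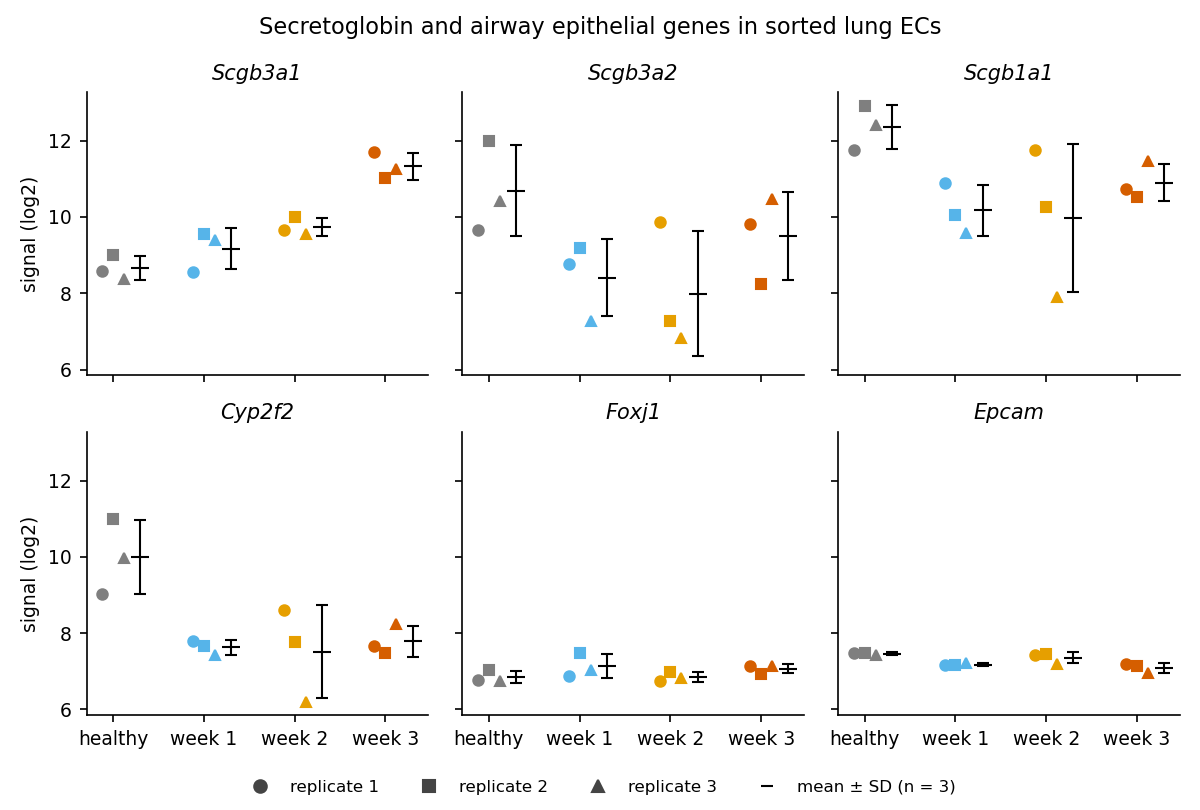
Log2 signal of the 6 genes in each array, by group from healthy to week 3 on the x axis, with 1 marker shape per replicate and the mean ± SD (n = 3) beside it. Scgb3a1 climbs to 11.33 at week 3, Scgb3a2, Scgb1a1 and Cyp2f2 are highest in healthy ECs with wide spread, and Foxj1 and Epcam stay within 6.74 to 7.49.

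The club cell products had lower means than healthy ECs at every week, and Cyp2f2 at week 3 was the only one of their 9 changes to pass the test. Scgb1a1 had signals of 11.76, 12.91 and 12.41 in healthy ECs, 10.90, 10.05 and 9.57 at week 1, 11.76, 10.25 and 7.90 at week 2, and 10.73, 10.51 and 11.46 at week 3. All 9 arrays after injection were below the 3 healthy ones, the week 2 replicate 1 by less than 0.01, and the 3 weeks overlapped each other. Its log2 fold change was -2.19 at week 1 (SE 0.39, limma adjusted p = 0.0905), -2.39 at week 2 (SE 0.88, adjusted p = 0.399) and -1.46 at week 3 (SE 0.34, adjusted p = 0.0628), none past the threshold. With the variance trended on signal and estimated robustly, the changes of weeks 1 and 3 passed (adjusted p = 0.0137 and 0.0281).

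Scgb3a2, which shares its family branch with Scgb3a1, gave 9.66, 11.998 and 10.42 in healthy ECs, 8.77, 9.18 and 7.27 at week 1, 9.87, 7.27 and 6.84 at week 2, and 9.82, 8.23 and 10.47 at week 3. Week 1 lay below all healthy arrays, while weeks 2 and 3 overlapped them. The log2 fold changes were -2.29 (SE 0.66), -2.70 (SE 0.88) and -1.19 (SE 0.72) at weeks 1, 2 and 3, with limma adjusted p = 0.307, 0.344 and 0.405. None passed.

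Cyp2f2 was the airway member with a call. Its signal was 9.03, 10.99 and 9.97 in healthy ECs, 7.81, 7.66 and 7.42 at week 1, 8.60, 7.76 and 6.19 at week 2, and 7.66, 7.47 and 8.25 at week 3. Every array after injection was below every healthy array, and the 3 weeks overlapped each other. At week 3 it averaged 7.79 ± 0.41, against 9.996 ± 0.98 in healthy ECs (SD, n = 3 each), and had fallen by 2.20 on the log2 scale (SE 0.46, limma adjusted p = 0.0476). The week 1 change of -2.37 (SE 0.43, adjusted p = 0.099) and the week 2 change of -2.48 (SE 0.68, adjusted p = 0.269) did not pass in limma. The week 3 call was lost in 5 of 6 fits that left out an array, kept only without healthy replicate 1 (limma adjusted p = 0.0282), and the adjusted p was highest without week 3 replicate 2 (limma, 0.122).

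The size of these shifts stood out more than their tests. Cyp2f2, Scgb3a2 and Scgb1a1 had the 3 lowest log2 fold changes of all 18193 genes at week 1, and again the 3 lowest at week 2. At week 3 they ranked 16 (Cyp2f2), 85 (Scgb1a1) and 165 (Scgb3a2) from the lowest. The spread of the 3 genes within groups was wide, with SDs of 0.19 to 1.95 on the log2 scale, against 0.23 to 0.54 for Scgb3a1. Healthy replicate 2 was the highest healthy array for all 3 and week 2 replicate 3 the lowest array of week 2. Without healthy replicate 2 the week 3 change of Cyp2f2 was -1.71, and without week 2 replicate 3 its week 2 change was -1.81 and that of Scgb1a1 was -1.36. Between week 3 and week 2 or week 1 none of the 3 passed in limma, with values of 1.52 and 1.0997 for Scgb3a2, 0.93 and 0.73 for Scgb1a1, and 0.28 and 0.16 for Cyp2f2. In the step from week 2 to week 3, Scgb3a2 ranked 69 from the highest of all genes, Scgb1a1 248 and Cyp2f2 2126, beside 60 for Scgb3a1. Over week 1 these ranks were 188, 436 and 3731, beside 10. In these steps the values thus had the sign of Scgb3a1, without passing. Without week 2 replicate 3 the week 3 over week 2 values were -0.10 for Scgb1a1 and -0.39 for Cyp2f2.

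**Figure D2:**
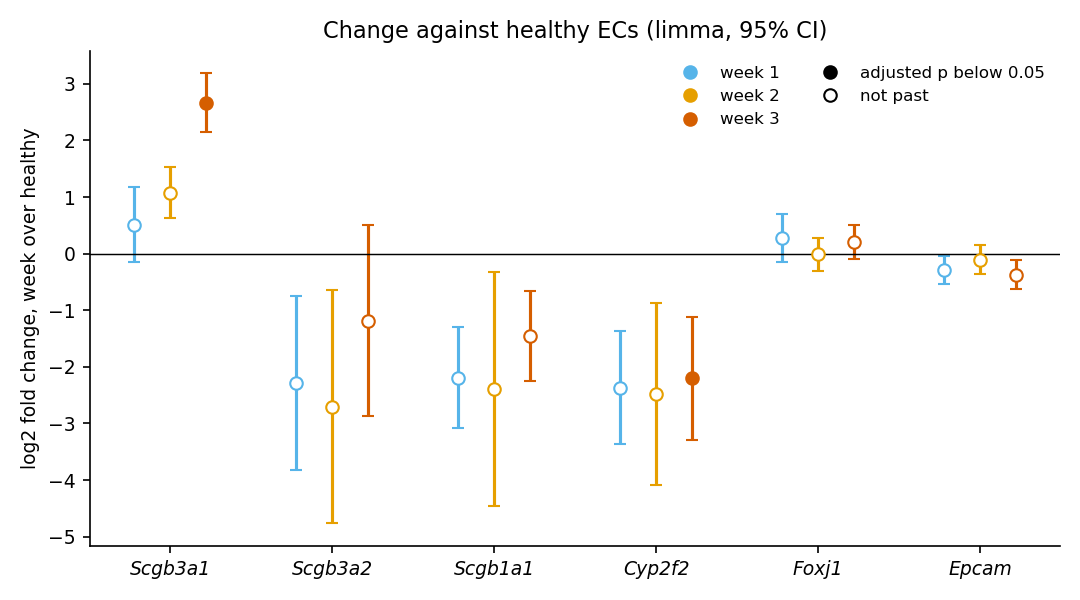
Log2 fold change of each week over healthy ECs for the 6 genes, with 95% confidence intervals from limma (n = 3 arrays per group) and filled circles for an adjusted p below 0.05. Scgb3a1 at week 3 (2.67) and Cyp2f2 at week 3 (-2.20) are the filled points, and the intervals of Scgb3a2, Scgb1a1 and Cyp2f2 are wide at every week.

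Foxj1 and Epcam passed no test at any week. Both probe sets lay below the array medians of 8.12 to 8.13, no detection calls were used, and whether signals this low follow transcript amounts was not tested. Foxj1 gave 6.79, 7.04 and 6.75 in healthy ECs, 6.88, 7.49 and 7.03 at week 1, 6.74, 6.98 and 6.82 at week 2, and 7.13, 6.93 and 7.13 at week 3, and all 4 groups overlapped. Its log2 fold changes were 0.28, -0.01 and 0.21 at weeks 1, 2 and 3 (95% CI at week 3 -0.09 to 0.50), with limma adjusted p = 0.701, 0.986 and 0.411. Epcam was 7.49, 7.48 and 7.43 in healthy ECs, 7.15, 7.15 and 7.23 at week 1, 7.42, 7.46 and 7.204 at week 2, and 7.19, 7.14 and 6.95 at week 3. Weeks 1 and 3 lay below all healthy arrays by a small amount. The changes of -0.29, -0.10 and -0.37 did not pass (limma adjusted p = 0.473, 0.79 and 0.114). A second Epcam probe set lay between 6.07 and 6.50 in all arrays, with changes of 0.01, 0.05 and -0.01.

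Among the members, 0 of 6 passed at week 1, 0 at week 2, and 1 rose and 1 fell at week 3. Over all genes, 0.0495% passed at week 1, 0.242% at week 2, and 2.38% had risen and 2.63% fallen at week 3. The week 1 arrays were all below the healthy ones for 4 members (Scgb3a2, Scgb1a1, Cyp2f2 and Epcam) against 6.93% of all genes. At week 2 this held for 2 members (7.15% of all genes) and Scgb3a1 was wholly above (10.5%). At week 3 it held for 3 members (12.7%), with Scgb3a1 wholly above (17.2%). In the week 3 comparison with week 2, 1 of 6 had risen (1.35% of all genes), and in that with week 1, 1 of 6 (0.649%). For week 2 over week 1, 0 members and 0 of all genes (0%) passed in limma, while 1192 genes had an unadjusted p below 0.05. The 3 comparisons with healthy share the same healthy arrays, so a high or low healthy array enters each of them.

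The distance between Scgb3a1 and each airway gene was then taken within each array, as the log2 signal of Scgb3a1 minus that of the gene relative to the healthy mean of the same difference. Against Scgb1a1 it was 1.36, 3.21 and 3.53 at week 1, 1.60, 3.44 and 5.36 at week 2, and 4.67, 4.21 and 3.49 at week 3, while healthy arrays lay between -0.33 and 0.53. The groups of each week lay wholly above healthy. The mean was 2.70 at week 1 (SE 0.73), 3.47 at week 2 (SE 1.12) and 4.13 at week 3 (SE 0.44, 95% CI 2.92 to 5.34).
Against Cyp2f2 the means were 2.88 (SE 0.61), 3.55 (SE 0.81) and 4.87 (SE 0.55) at weeks 1, 2 and 3, and against Scgb3a2 they were 2.80 (SE 0.89), 3.77 (SE 1.12) and 3.85 (SE 0.80). All of these week groups were separate from healthy, with an exact two-sided permutation p = 0.1, the smallest that 3 against 3 arrays allow. Against Foxj1 the means were 0.24 (SE 0.22, 95% CI -0.38 to 0.85, exact permutation p = 0.4), 1.08 (SE 0.13) and 2.46 (SE 0.18), and against Epcam 0.80 (SE 0.35, exact permutation p = 0.2), 1.18 (SE 0.20) and 3.04 (SE 0.25).
At week 1, the distance was wholly above healthy for 3 of 5 genes, against 7.6% of all other genes. Scgb3a1 itself changed by 0.51 at week 1 and overlapped healthy, while Scgb3a2, Scgb1a1 and Cyp2f2 changed by -2.29, -2.19 and -2.37. Most of these 3 distances thus came from the lower signals of the airway genes. At weeks 2 and 3 the distance was wholly above healthy for 5 of 5. The same held for 92.9% and 99.6% of all other genes, because Scgb3a1 itself was above healthy there.

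**Figure D3:**
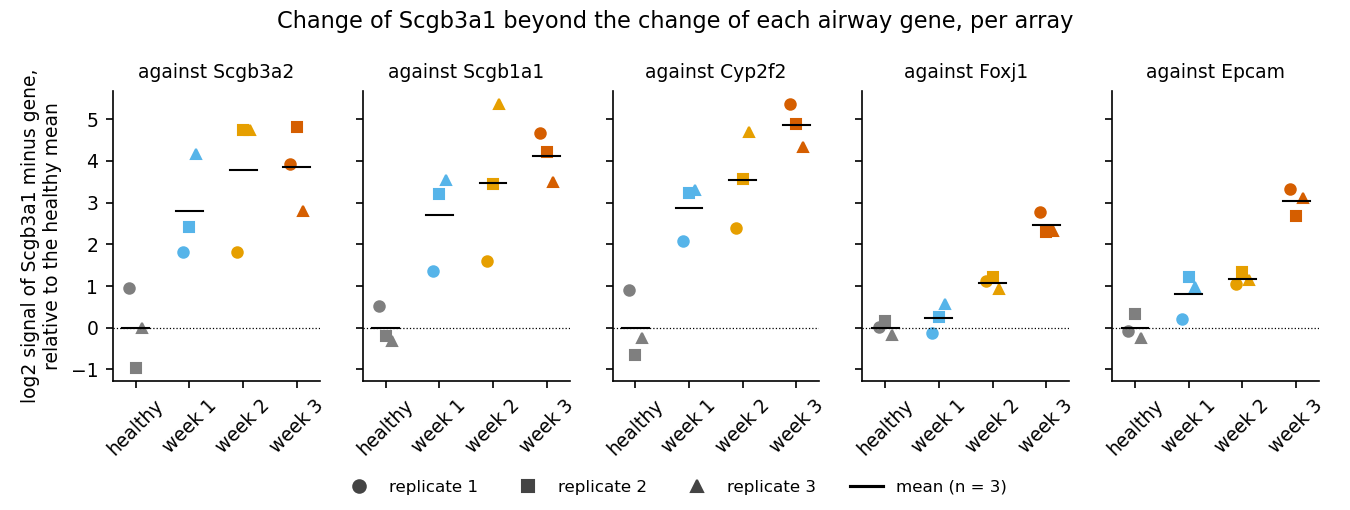
Log2 signal of Scgb3a1 minus that of each airway gene in each array, set relative to the healthy mean, by group, with markers for replicates and a line at the mean (n = 3). Against Scgb3a2, Scgb1a1 and Cyp2f2 the distance is already 2.70 to 2.88 at week 1, where Scgb3a1 itself changed by 0.51 and overlapped healthy. Against Foxj1 (0.24) and Epcam (0.80), both read from dim probe sets, week 1 overlaps healthy.

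Across arrays, the club cell transcripts varied together and Scgb3a1 did not vary with them. Over the 12 arrays, Scgb1a1 and Cyp2f2 had Pearson r = 0.925 (permutation p = 1e-05, adjusted over 15 pairs 0.00015; the smallest p that 100000 resamples can give) and Spearman rho = 0.965 (permutation p = 1e-05, adjusted 0.00015). Scgb3a2 had r = 0.885 with Scgb1a1 (permutation p = 0.00014, adjusted 0.00105) and rho = 0.853 (permutation p = 0.00093, adjusted 0.00697). With Cyp2f2 it had r = 0.85 (permutation p = 0.00033, adjusted 0.00165) and rho = 0.811 (permutation p = 0.00226, adjusted 0.0113). Without the 2 arrays farthest from the median (week 2 replicate 3 and healthy replicate 2), r was 0.902, 0.808 and 0.657 for these 3 pairs in the same order. With each group mean subtracted it was 0.912, 0.781 and 0.824 (not tested), so the replicates of a group carried the relation as well as the groups. The permutations moved arrays freely between groups, so their p-values also hold the differences between groups.

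Since week 3 lay apart in Scgb3a1, its relation to the airway genes was taken over the 9 arrays of healthy, week 1 and week 2. Pearson r was -0.518 with Scgb3a2, -0.545 with Scgb1a1 and -0.521 with Cyp2f2 (permutation p = 0.154, 0.127 and 0.151), and Spearman rho was -0.417, -0.483 and -0.483 (permutation p = 0.272, 0.194 and 0.192). After adjustment over 15 pairs these were 0.285 for each r and 0.395 to 0.453 for rho, so none held. Without the 2 arrays farthest from the median in Scgb3a1 (healthy replicate 3 and week 1 replicate 1), r was -0.55, -0.488 and -0.554. With each group mean subtracted over 12 arrays, it was 0.19, -0.03 and 0.21. With Foxj1 r was 0.362 and rho 0.2 (permutation p = 0.367 and 0.614, adjusted 0.55 and 0.768), r without the same 2 arrays was 0.191, and with group means subtracted it was 0.81. With Epcam r was -0.12 and rho -0.05 (permutation p = 0.746 and 0.912, adjusted 0.799 and 0.912), and r without these arrays was -0.33. The remaining 7 pairs of airway genes had Pearson r between -0.481 and 0.581, with permutation p of 0.175 or more after adjustment.

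**Figure D4:**
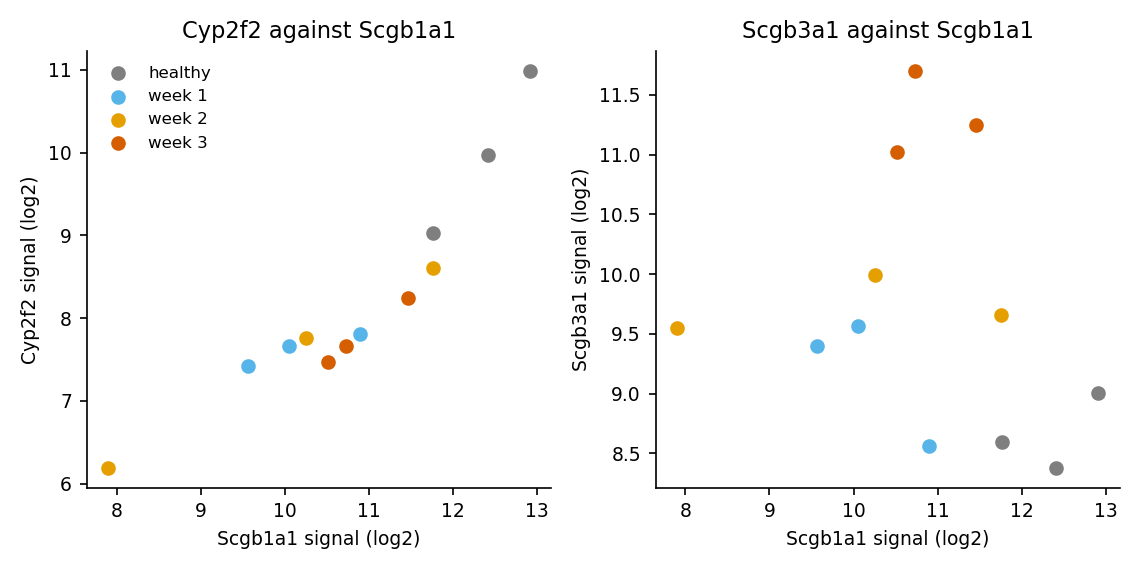
Log2 signals of Cyp2f2 (left) and Scgb3a1 (right) against Scgb1a1, with 1 point per array coloured by group. On the left the 12 arrays lie along a line (r = 0.925), and on the right the 3 week 3 arrays stand above all others in Scgb3a1 (11.02 to 11.70).

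Genes whose signal was most like that of Scgb3a1 over the 12 arrays were sought among 856 genes with an SD of at least 0.5, by Pearson r as a description. The 8 highest were Ildr2 (r = 0.967), Fscn1 (0.964), Clca3a1 (0.953), Emid1 (0.953), Trp53i11 (0.95), Xpnpep2 (0.949), Tmem26 (0.946) and Lrg1 (0.939). Fscn1 encodes the actin bundler fascin and Lrg1 a secreted glycoprotein made by ECs. Scgb3a2, Scgb1a1 and Cyp2f2 were not among them. Their means were highest in healthy ECs and that of Scgb3a1 at week 3, so their absence is not a separate result. Foxj1 and Epcam, with SDs of 0.21 and 0.17, were below the cut and could not appear. Since Scgb3a1 was highest at week 3 in these same arrays, the choice fixed the direction of these genes there, and their changes are a description. Week 3 was above healthy by 1.22 (Xpnpep2) to 2.62 (Ildr2). The 4 lowest were Lama3 (-0.936), a laminin chain of epithelial basement membranes, Cytl1 (-0.904), Gsn (-0.885), the actin-severing protein gelsolin, and Tppp (-0.876). Week 3 over healthy was -1.08 (Cytl1) to -2.05 (Gsn) for these 4, and Gsn was already at -1.08 at week 2.
For Scgb1a1, the 8 highest were led by Cyp2f2 (0.925) and Scgb3a2 (0.885), followed by Acaa1b (0.816), Loxl1 (0.814), Srpx2 (0.793), Col6a3 (0.788), Il6 (0.775) and G530011O06Rik (0.774). Loxl1, Srpx2 and Col6a3 encode proteins of the extracellular matrix, and none of the 6 genes after Scgb3a2 passed at any week against healthy.

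Other secretoglobins did not pass any test. Of 23 secretoglobin genes listed, 6 had a probe set with 1 symbol, and beside the 3 members these were Scgb1b2, Scgb1b27 and Scgb2b27, genes of the androgen-binding protein cluster. Their signals ran from 6.27 to 6.73 (Scgb1b2), 7.96 to 8.84 (Scgb1b27) and 5.92 to 6.36 (Scgb2b27) over the 12 arrays. At week 3 the changes were -0.17, -0.01 and -0.14, with limma adjusted p of 0.45 or more. Scgb3a1 was the 1 of 6 that had risen (2.38% of all genes), and none had fallen (2.63%).

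Of the club cell list, 4 of 17 measured genes had fallen at week 3 (2.63% of all genes) and none had risen, with a median log2 fold change of -0.61 beside 0.03 over all genes. The list includes Scgb1a1, Scgb3a2 and Cyp2f2. Among its 14 other genes, 3 had fallen and the median was -0.18. Cbr2, a carbonyl reductase of club cells, averaged 9.30 ± 0.30 at week 3, against 11.60 ± 0.37 in healthy ECs (SD, n = 3 each), and had fallen by 2.29 (SE 0.22, limma adjusted p = 0.00419). The aldehyde dehydrogenases Aldh1a1 and Aldh1a7 had fallen by 1.70 and 1.53 (limma adjusted p = 0.00305 and 0.00714), and Cyp2f2 was the fourth. No gene of the list passed at week 1 or 2, where the medians were -0.49 and -0.61 with the members and -0.42 and -0.34 without them. Bpifa1, an abundant secreted product of club cells, had a change of 0.37 with an SE of 1.27. Averaged over the 17 genes, the log2 signal was 8.26 to 9.29 in healthy arrays, 7.75 to 7.90 at week 1, 7.44 to 8.17 at week 2 and 7.77 to 8.11 at week 3, so every array after injection was below every healthy one. Over the 14 other genes it was 7.85 to 8.72 in healthy arrays, 7.63 to 7.68 at week 1, 7.54 to 7.78 at week 2 and 7.56 to 7.82 at week 3.

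Of 26 ciliated cell genes measured, 1 had risen (2.38% of all genes) and 1 fallen (2.63%) at week 3, with a median of -0.03. Dnah11, an axonemal dynein heavy chain, had risen by 1.08 (SE 0.19, limma adjusted p = 0.0258) and overlaps the gene Cdca7l in the genome. Tppp3 had fallen by 0.80 (limma adjusted p = 0.0499). The list averaged 7.57 to 7.66 at week 3 and 7.56 to 7.67 in healthy ECs.
Of the smaller airway lists, basal cell genes (0 of 7) and goblet or mucous cell genes (0 of 8) gave no call at week 3, with medians of 0.13 and 0.11. The basal genes with the highest absolute values were Krt15 (0.31) and Aqp3 (0.17) and the goblet genes Foxa3 (-0.74) and Muc5ac (0.30). Of 6 neuroendocrine genes, 1 had fallen (2.63% of all genes), Chgb by 0.72 (limma adjusted p = 0.0419). The ciliated, basal, goblet and neuroendocrine lists had group means of 7.42 to 7.81, below the array medians of 8.12 to 8.13. Whether signals this low follow transcript amounts was not tested, so values near zero do not show that these cell types were unchanged.

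General epithelial genes showed 2 falls among 19 at week 3 (2.63% of all genes) and a median of -0.37, and 9 of 19 were wholly below healthy (12.7% of all genes). Cdh1, the epithelial cadherin, had fallen by 1.41 (limma adjusted p = 0.0225) and the protease inhibitor Spint2 by 0.84 (limma adjusted p = 0.0177). Alveolar cells are not of the airway, and their genes are given because they move beside the club cell genes. At week 3, 5 of 11 genes of alveolar type 2 cells had fallen (2.63% of all genes), led by Slc34a2 (-1.57), Sftpa1 (-1.34), Cxcl15 (-1.08) and Napsa (-1.07), and 5 of 8 genes of alveolar type 1 cells, led by Ager (-1.81), Akap5 (-1.64), Rtkn2 (-1.36) and Clic3 (-1.28). Averaged over each list, the alveolar type 2 genes were at 10.88 to 11.11 in healthy arrays, 9.52 to 10.37 at week 1, 9.64 to 10.87 at week 2 and 10.18 to 10.58 at week 3, and the alveolar type 1 genes were at 9.23 to 9.54 at week 3 and 10.30 to 10.42 in healthy ECs.

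Genes of the other cells that the sort was meant to discard moved the same way in part. Of 10 fibroblast genes, 5 had fallen at week 3 (2.63% of all genes), led by Pdgfra (-2.25), Tcf21 (-1.79), Dpt (-1.30) and Dcn (-1.12), and 3 at week 2 (0.242% of all genes passed in either direction). The collagen genes of the list had values near zero at week 3, with 0.18 for Col1a1, -0.004 for Col1a2 and -0.06 for Col3a1, as did Mfap5 (0.15). Of 10 genes of mural cells, Abcc9 (-1.68) and Myh11 (-0.88) had fallen at week 3 (2.63% of all genes), and 2 had fallen at week 2 (0.137%). Of 10 leukocyte genes at week 3, Fcer1g had risen (0.60, with 2.38% of all genes risen) and Cd68 fallen (-1.18, with 2.63% fallen). Of 15 endothelial genes, 0 passed the limma test at week 3 (3 had an unadjusted p below 0.05), 4 were wholly above healthy (17.2% of all genes) and 4 wholly below (12.7%), led by Emcn (0.65) and Robo4 (0.35) above and Eng (-0.21) below. List means were 12.86 to 12.93 at week 3 and 12.81 to 12.90 in healthy ECs. Pecam1, which encodes the sort marker CD31, lay between 13.40 and 13.53 in all 12 arrays. The highest signal of any probe set was 13.99, and 8 of the 15 endothelial genes averaged above 13. Whether signals this bright follow transcript amounts was not tested.
Among the sort antigens at week 3, Pdgfra (CD140a) had fallen and Pdgfrb (CD140b, -0.91, limma adjusted p = 0.0575), Itgam (CD11b, -0.24), Ptprc (CD45, 0.39), Epcam (-0.37) and Pecam1 (0.04) did not pass. The part of these other cells in the changes of the club cell transcripts was not tested. At week 3 Scgb3a1 was above healthy and the club cell, alveolar and fibroblast list means were below it. From week 2 to week 3, group means went up for the club cell (7.84 to 7.99), alveolar type 2 (10.18 to 10.33) and fibroblast lists (10.12 to 10.45). They also went up for mural (8.83 to 9.11) and leukocyte genes (8.52 to 9.05). They went down for alveolar type 1 (9.83 to 9.38) and general epithelial genes (8.51 to 8.43). The part of these cells in the Scgb3a1 signal was not tested. The difference between the 3' and 5' probe sets of Gapdh, a sign of RNA integrity and labelling, was 0.37 to 0.69 in healthy arrays, 0.42 to 0.53 at week 1, 0.30 to 0.41 at week 2 and 0.24 to 0.40 at week 3, and its part in the results was not tested.

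**Figure D5:**
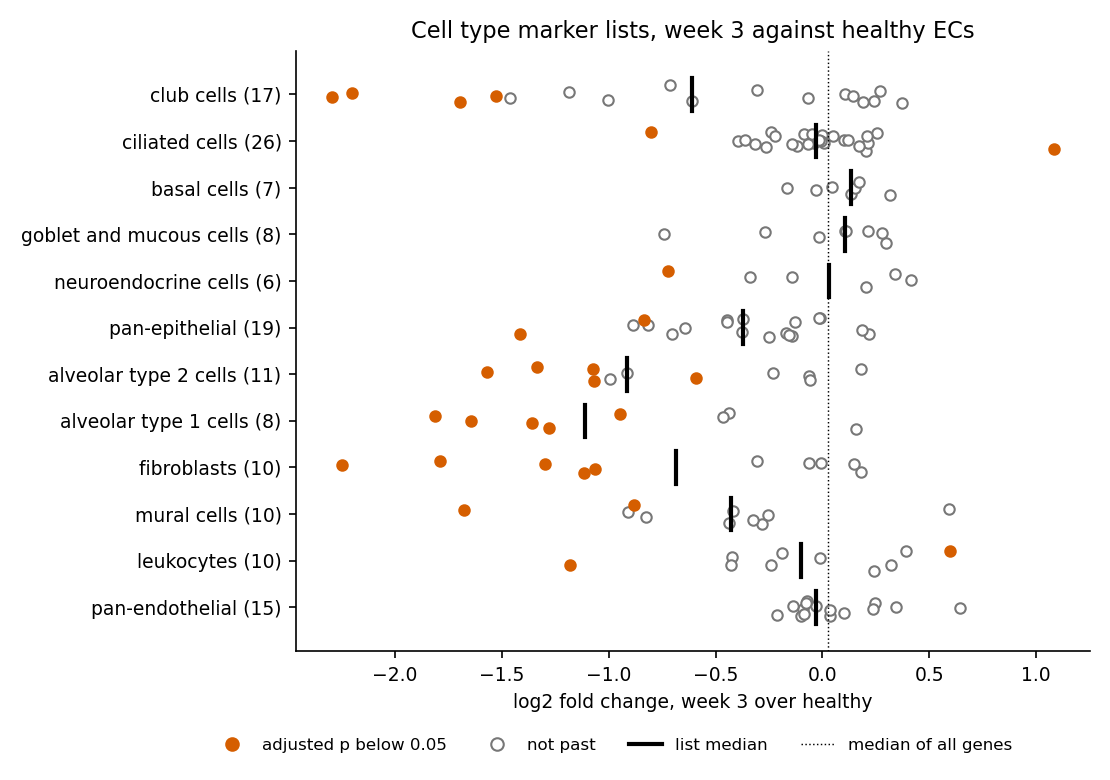
Log2 fold change of week 3 over healthy ECs for each measured gene of 12 cell type lists, with the number of genes in brackets, filled circles for a limma adjusted p below 0.05, bars at list medians and a dotted line at the median of all genes (0.03). Medians lie to the left for the fibroblast (-0.69), club cell (-0.61), mural (-0.43), pan-epithelial (-0.37) and alveolar lists. Ciliated (-0.03), basal and pan-endothelial lists lie around zero. The group means of the ciliated and basal lists were below the array medians. Without the members, the club cell median was -0.18.

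Of 13 measured transcription factors that act on airway secretory genes, 1 had fallen at week 3 (2.63% of all genes), the forkhead factor Foxa2, by 0.78 (SE 0.14, limma adjusted p = 0.0322). The median of the list was -0.25, and 12 of 13 values were below 0. Foxa2 had no value with dim probe sets left out. Foxa1 had -0.96 (limma adjusted p = 0.211) and Cebpa -1.13 (limma adjusted p = 0.103), both not past. Nkx2-1, which encodes the factor of the marked letters, averaged 7.91 in healthy ECs. Its means were 8.12, 8.24 and 7.90 at weeks 1, 2 and 3, near the array medians, and it passed at no week against healthy. At week 1, Cebpa was the 1 gene of the list that had fallen (0.0385% of all genes), by 1.60 (SE 0.15, limma adjusted p = 0.0394). Its signal was 7.53, 7.69 and 7.65 at week 1, against 8.98, 9.48 and 9.22 in healthy ECs, with no overlap.
Of 8 genes reported to encode partners of secretoglobins, among them the scavenger receptor Marco and the phospholipase Pla2g1b, none passed at week 3. The highest values were 0.70 for Pla2g1b (limma adjusted p = 0.0745) and 0.65 for Fn1, fibronectin (limma adjusted p = 0.0536), and all 3 arrays were above healthy for 3 of the 8 (17.2% of all genes). Fn1 had risen over week 2 by 1.41 (limma adjusted p = 0.0176) and over week 1 by 1.19 (limma adjusted p = 0.0236), the only gene of the 8 past the threshold in these comparisons.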

How the data were processed

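Gene expression was measured in 12 arrays (4 groups of 3). Per the labels and methods, the authors processed raw array files by robust multiarray average in Chipster, and the deposited values are log2 signals, 1 per probe set and array, used as deposited. Array medians lay between 8.12 and 8.13. Of 45101 probe sets, 64 array controls were left out. Of the 45037 tested, 34945 carry 1 symbol, 932 several and 9160 none, and 9010 of 18193 genes had more than 1 such probe set, of which the highest mean was used. The genome build was not given in the sources used here, so no gene coordinates beyond the RefSeq windows are given. All 167 measured list and member genes matched RefSeq by gene ID.

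Each comparison was a two-group fit in limma 3.58.1 (R 4.3.3; lmFit and eBayes at their defaults), as the methods describe, with Benjamini-Hochberg adjustment over all 45037 probe sets and a threshold of 0.05. The fit was tested on simulated data. A planned moderated fit of Scgb3a1 minus each probe set gave 1 common error for all, so the per-array differences were tested by exact two-sided permutation with unmoderated errors, a choice made after seeing the data. Correlations used 100000 resamples that moved arrays freely between groups (Python 3.11.15, scipy 1.17.1). Genes named beside the members are the other secretoglobins, up to 4 genes per list past the threshold at week 3 with the largest change (or the top 2 where none passed), the sort antigens, and the genes most and least like Scgb3a1 or Scgb1a1 by Pearson r. Bpifa1, Foxa1, Cebpa, Nkx2-1, Marco, Emcn, Robo4, Eng, Mfap5, the collagen genes and the genes of weeks 1 and 2 were added after their values were seen. So was the club cell list without its members. Members and lists were chosen with earlier results of these data known. The labels call the replicates biological without naming separate animals, so p-values measure the spread between these samples. Alternatives were all arrays in 1 fit, a replicate block, each array left out, renormalization, median centring, a filter on dim probe sets, trended and robust variance, array weights, and other probe sets of a gene. Detection calls were not used here.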

Additional observations from a re-analysis of the deposited data

Results flagged for a closer look

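Scgb3a1 differed between time points in a direct test. Its week 3 signal was above week 2 by 1.59 and above week 1 by 2.15 on the log2 scale (limma adjusted p = 0.0224 and 0.0302), with all 3 week 3 arrays above all 3 arrays of either earlier week. Both calls are fragile. The step over week 2 was lost in 5 of 6 fits that left out an array and the step over week 1 in 6 of 6. Neither passed with the replicate block (limma adjusted p = 0.0917 and 0.124). Replicate numbers did not pair the arrays, so the block by itself says little about these steps.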

How the results depend on the processing

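The rise of Scgb3a1 at week 3 over healthy stayed past the threshold under every alternative run, and without each array in turn it was 2.48 to 2.84 (limma adjusted p = 0.00815 to 0.0157). The step over week 2 was 1.40 to 1.74 without each array (limma adjusted p = 0.0417 to 0.0839, past the threshold only without week 3 replicate 2) and the step over week 1 was 1.85 to 2.35 (limma adjusted p = 0.0583 to 0.112, never past). These fits hold fewer arrays. Replicate numbers did not pair the arrays (correlation of same-numbered deviations -0.104 to 0.0647 over 18 pairs). With the replicate block, the step over week 2 (1.59, limma adjusted p = 0.0917) and over week 1 (2.15, limma adjusted p = 0.124) no longer passed, and neither did Cyp2f2 at week 3 (limma adjusted p = 0.0802), which left member counts of 0, 0 and 1 for these comparisons.

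At week 1, 2 members passed with trended and robust variance (Scgb1a1 and Cyp2f2), 2 with the mean of a gene's probe sets, where fewer features were tested, and 1 with dim probe sets left out (Scgb1a1), against 0 in the main comparison. Scgb1a1 at week 3 also passed under these 3 (limma adjusted p = 0.0281, 0.0363 and 0.0401). The filter left no value for Foxj1 and Epcam. General epithelial genes fallen at week 3 numbered 4 with the filter and 4 with the mean of probe sets, against 2, and factors of airway secretory genes 0 with the filter, against 1. Without each array the counts at week 3 were 1 to 2 for members, 0 for ciliated genes fallen, 0 to 2 for epithelial genes and 0 to 1 for factors, and members past in week 3 over week 2 and over week 1 were 0 to 1 and 0. The epithelial count was 0 without week 3 replicate 3, healthy replicate 1 or healthy replicate 2.

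The lower Epcam probe set turned the sign at week 1 (0.012) and week 2 (0.046). Leaving out an array turned signs of values not past any test. Foxj1 at week 2 was -0.077 to 0.080 (0.045 without week 2 replicate 1, 0.0027 without week 2 replicate 3 and 0.080 without healthy replicate 2). For week 3 over week 2, Scgb1a1 was -0.10 to 1.83 and Cyp2f2 -0.39 to 0.82. For week 3 over week 1, Cyp2f2 was -0.064 to 0.33 and Foxj1 -0.20 to 0.11. For week 2 over week 1, Scgb3a2 was -1.35 to 0.16, Scgb1a1 -1.10 to 0.83 (0.16 without week 1 replicate 1) and Cyp2f2 -0.65 to 0.55. With group means subtracted, a choice made after seeing the data, the correlations of Scgb3a1 were 0.19 (Scgb3a2), -0.027 (Scgb1a1), 0.21 (Cyp2f2), 0.81 (Foxj1) and 0.38 (Epcam). The cause of these shifts was not tested. With 3 arrays per group, the wide replicate spread of the club cell transcripts limits what their tests can show.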
